A study of Danio rerio with 6 samples.

Results

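The natriuretic peptides and their receptors form a small hormone system of 7 genes in these data. The members were taken by symbol, without regard to case, from the gene annotation of the deposited table: the peptide genes *nppa*, *nppb* and *nppc* and the receptor genes *npr1a*, *npr1b*, *NPR2* and *npr3*. All 7 were found, of 31701 genes in the table. Each was measured in 6 libraries made from whole hearts of larval zebrafish, dissected by hand between 57 and 59 hours post fertilization. The mutant group and the wild-type (WT) sibling group had 3 libraries each, and every library was a pool of 23 hearts. The series is titled for Wwtr1, the coactivator at the end of the Hippo pathway that is also known as Taz. The labels call the tested animals only mutant and give no allele, so transcripts of *wwtr1* were used to check them. Nothing in the labels separates atrium, ventricle or valve, and a pool averages over its 23 hearts.

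Atrial and brain-type natriuretic peptides, encoded by *nppa* and *nppb*, are secreted by heart muscle cells, and their genes are widely used readouts of chamber identity and of load on the heart. In the zebrafish embryo *nppa* marks the working myocardium of both chambers and is kept low in the atrioventricular canal. C-type natriuretic peptide, encoded by *nppc*, is known in mammals from endothelium, brain and growth plate. The receptors of the Npr1 and Npr2 kind are guanylate cyclases that make cyclic GMP (cGMP) when they bind a peptide, Npr1 answering mainly to the atrial and brain-type peptides and Npr2 to the C-type. Npr3 lacks the cyclase and is known for clearing the peptides from the circulation.

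The heart peptides lie side by side. On the GRCz10 assembly, *nppb* (ENSDARG00000052958) occupies chromosome 8 from 48620752 to 48621775 and *nppa* (ENSDARG00000052960) follows from 48624271 to 48628895, both on the plus strand and 2495 bases apart. Another gene, zgc:195023, which the gene name table calls *nppal*, ends 5169 bases before *nppb*. *nppc* (ENSDARG00000068126) lies on the minus strand of chromosome 22 from 38628601 to 38635152. This is the chromosome of *wwtr1* itself, whose annotated end is 467 kb from *nppc*. The receptor genes are spread over other chromosomes: *npr1a* (ENSDARG00000031751) on chromosome 19 from 26839367 to 27044894, *npr1b* (ENSDARG00000018750) on chromosome 16 from 28968963 to 29056753, and *NPR2* (ENSDARG00000104393) and *npr3* (ENSDARG00000035253) on chromosome 5, from 53938900 to 54016006 and from 40660286 to 40707418.

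**Figure D1:**
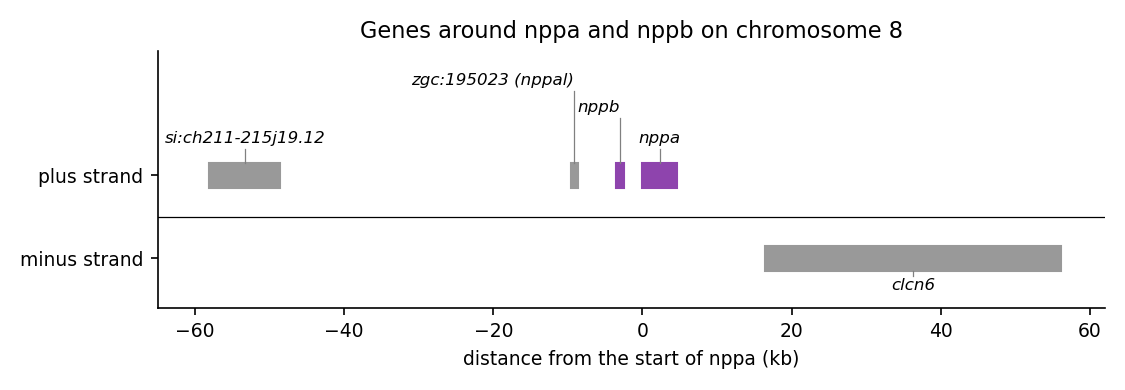
Genes of the deposited annotation around *nppa* and *nppb* on chromosome 8, drawn to scale as boxes by strand against the distance from the start of *nppa* in kb; members are purple and other genes grey. The 2495 bases between *nppb* and *nppa* hold no other annotated gene, and the nearest gene on the other strand is *clcn6*.

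Values are the authors' normalised read counts, whole numbers scaled between libraries. Their totals ran from 21068538 to 21968397 in mutant and from 19187058 to 25227868 in WT libraries, and features annotated as ribosomal RNA took 41.0% to 41.4% of the total in mutant and 40.4% to 43.9% in WT. A read is worth about 0.959 to 1.07 units in mutant and 0.88 to 1.14 in WT libraries, so a value is close to a number of reads. Transcripts of *wwtr1* stood at 128, 151 and 100 in mutant libraries 1 to 3, against 362, 416 and 471 in WT libraries 1 to 3, a log2 change of −1.72 (limma, Benjamini-Hochberg adjusted p = 0.000251). Heart muscle transcripts were abundant in every library. The 12 cardiomyocyte markers checked summed to between 328882 and 359921 in mutant and between 323363 and 378960 in WT libraries. The largest parts of this sum came from the titin entries *ttn.2* and *ttn.1*, with means of 143684 and 78412. Their annotated spans overlap on the same strand, and how shared reads were counted is not known, so the sum is uncertain. The myosin light chain gene *myl7* had a mean of 18657. RNA of other tissues was present too. Liver markers summed to 1716 to 3429 in mutant and 3241 to 4743 in WT libraries, and red blood cell markers to 75257 to 131189 in mutant and 81857 to 92956 in WT. Cartilage markers summed to 5078 to 7618 in mutant and 4971 to 9578 in WT, neuronal markers to 711 to 831 in mutant and 773 to 834 in WT. Skin markers summed to 51911 to 63990 in mutant and 44327 to 69532 in WT, and fast skeletal muscle markers to 26562 to 36441 in mutant and 25804 to 44455 in WT. The skin sum has the same limit, since *cyt1* overlaps *krt17* and *krt91* on the same strand. No marker of these lists was at 0 in all 6 libraries, and none tested was called, where 0.037% of all tested genes were. Of 8 liver entries 6 were tested. *fabp10a*, named after its values were seen, reached a value of 10 in too few libraries to be. It had 0, 1 and 2 in mutant and 3, 25 and 87 in WT libraries. The other untested entry, 1 of those named *hp*, had 2, 6 and 3 in mutant and 1 in each WT library. All 6 tested liver markers had a log2 change below 0 (median −0.73), and all 6 blood markers one above 0 (median 0.32). An unadjusted p under 0.05 (limma) was reached by 5 liver and 2 blood markers, against 6.6% of all tested genes. The other lists had changes of both signs. In bulk hearts, fewer cells of a type and less RNA per cell cannot be told apart.

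Of the 7 members, 6 reached a value of 10 in at least 3 libraries and were tested within one fit over 18901 genes; *nppc* did not. None of the 6 was called between mutant and WT hearts at an adjusted p under 0.05 (limma with a variance trend, Benjamini-Hochberg over all genes tested), where 0.037% of all tested genes were. None had an unadjusted p under 0.05 either, against 6.6% of all tested genes, and in none did the 3 mutant values stand clear of the 3 WT values, against 11.1% of all tested genes. The median log2 change of the 6 was 0.06, and that of all tested genes was −0.0029.

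*nppa*, the gene of atrial natriuretic peptide, was at a nearly constant level. Its value was 12063, 12197 and 12582 in mutant libraries 1 to 3 and 12719, 11653 and 11298 in WT libraries 1 to 3. All 3 mutant values lie inside the range of the WT values. By read number it was 42nd among protein-coding genes, or 0.0959% to 0.0975% of all reads outside ribosomal RNA in mutant libraries and 0.0823% to 0.111% in WT libraries. The means were 12281 ± 269 in mutant and 11890 ± 740 in WT hearts (SD, n = 3 each), a log2 change of 0.05 with a standard error (SE) of 0.0897 (limma, adjusted p = 0.970). The 95% interval of the fold change runs from 0.905 to 1.18. The interval gives the changes compatible with 3 pools a group and is not a limit of detection. A change outside it could also go uncalled after adjustment over all genes tested. Its residual SD around the group means was 0.0665 on the log2 scale, against a median of 0.121 over the 35 tested genes of like abundance, those whose mean lies within 0.5 log2 units of its own.

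*nppb*, the gene of brain-type natriuretic peptide, stood at 1002, 884 and 948 in mutant libraries and at 1062, 977 and 948 in WT libraries. The highest value was in WT library 1 and the lowest in mutant library 2, and the groups share the value 948. The means were 945 ± 59.1 in mutant and 996 ± 59.2 in WT hearts (SD, n = 3 each), a log2 change of −0.08 (SE 0.0896, limma adjusted p = 0.949). The interval of the fold change was 0.831 to 1.08. The highest library exceeded the lowest by 1.20 times, close to the 1.13 times of *nppa*.

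*nppc*, the gene of C-type natriuretic peptide, was close to the limit of detection. It had values of 5, 2 and 4 in mutant and of 5, 3 and 3 in WT libraries, which is a handful of reads among about 20.3 to 22.0 megareads in mutant and 21.8 to 23.8 megareads in WT libraries. The mean was 3.67 in both groups. No fold change is given at this depth, and whether *nppc* differed between the groups was not detectable. The further peptide genes of the table, found by their names in the gene name table after the values were seen, were as low: zgc:195023 (*nppal*), the neighbour of *nppb*, had 2, 9 and 1 in mutant and 16, 8 and 2 in WT libraries, and wu:fj39g12 (*nppcl*) had 1, 0 and 0 in mutant and 0 in each WT library. Neither was tested.

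**Figure D2:**
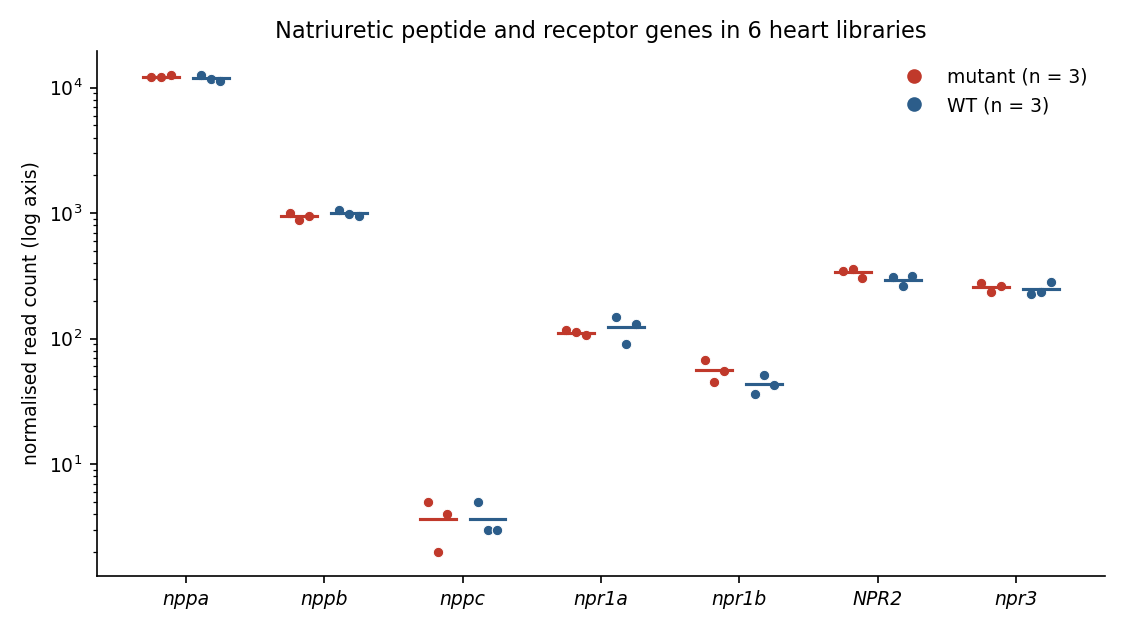
Normalised read counts (log axis) of the 7 members in each library, mutant in red and WT in blue, with points for libraries 1 to 3 from left to right and a bar at the group mean. The groups overlap for every member, and *nppc* stands at 2 to 5 in all 6 libraries.

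Among the receptors, both *npr1* genes were detected. *npr1a* stood at 117, 112 and 106 in mutant and at 148, 91 and 132 in WT libraries. The mutant values lie close together inside a WT range that is 1.63 times wide. The means were 112 ± 5.51 in mutant and 124 ± 29.4 in WT (SD, n = 3 each), a log2 change of −0.12 (SE 0.183, limma adjusted p = 0.961; interval of the fold change 0.703 to 1.21). Its direction rests on WT library 1, without which the log2 change was 0.025 (limma adjusted p = 0.994). The value of its partner *npr1b* was 68, 45 and 55 in mutant and 36, 51 and 43 in WT libraries. Mutant libraries 1 and 3 exceed all WT libraries and mutant library 2 does not. The log2 change was 0.36, the largest of the 6, but with an SE of 0.243 (limma adjusted p = 0.857; interval of the fold change 0.893 to 1.84). It was 0.21 without mutant library 1 and 0.50 without mutant library 2. The annotated span of *npr1b* overlaps si:dkey-239n17.6, a gene on the same strand listed at 0 in all 6 libraries. No source used here says how reads shared by such a pair were counted, so the level of *npr1b* is uncertain.

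*NPR2*, the receptor of the C-type peptide, named in capitals in the table, stood at 347, 361 and 307 in mutant and at 310, 262 and 314 in WT libraries. Mutant libraries 1 and 2 lie above all WT libraries, and mutant library 3 lies below WT libraries 1 and 3. The means were 338 ± 28.0 in mutant and 295 ± 28.9 in WT (SD, n = 3 each), a log2 change of 0.20 (SE 0.117, limma adjusted p = 0.838; interval of the fold change 0.964 to 1.36). This receptor was read in every library, while the gene of its main ligand, *nppc*, stood at 2 to 5. The clearance receptor gene *npr3* had 280, 234 and 261 in mutant and 226, 234 and 282 in WT libraries. The groups span almost the same range and share the value 234. The means were 258 ± 23.1 in mutant and 247 ± 30.3 in WT (SD, n = 3 each), a log2 change of 0.07 (SE 0.127, limma adjusted p = 0.972; interval of the fold change 0.867 to 1.26).

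**Figure D3:**
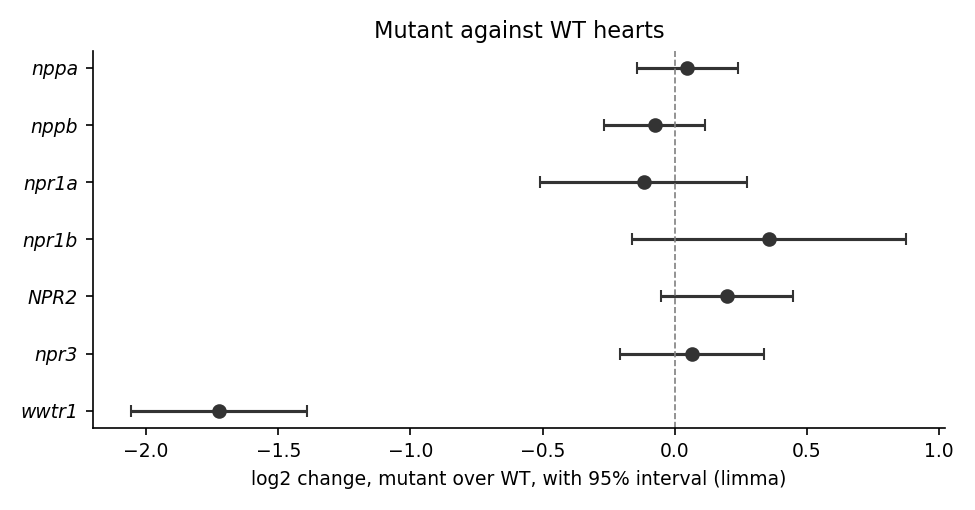
Log2 change of the 6 tested members and of *wwtr1*, mutant over WT, with 95% intervals from limma. Every member's interval includes 0, from *npr1a* at −0.12 to *npr1b* at 0.36, while *wwtr1* stands at −1.72.

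Highs and lows were not spread evenly over the libraries, and WT library 1 held an extreme of every member but *NPR2*. Its values were the highest of *nppa*, *nppb* and *npr1a* and the lowest of *npr1b* and *npr3*. It shared the highest value of *nppc* with mutant library 1. Highs in WT library 1 were not particular to the members. Every cardiomyocyte marker checked but *ryr2b*, *ttn.2* and *myl4* was also highest there, as was *myl7* at 22303. The share of all genes with an extreme in this library was not counted. WT library 2 held the lowest *npr1a* and *NPR2*. The residual SD was 0.262 for *npr1a*, above that of 74.6% of the 3131 tested genes of like abundance, and between 0.134 and 0.270 for the other receptors. For *nppb* it was 0.0877, above that of 34.6% of 892 like genes, and for *nppa* it was above that of 5.71% of 35 like genes.

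Because *nppb* and *nppa* are adjacent and both come from heart muscle, their ratio was also taken within each library, where the scaling between libraries cancels. There were 8.31, 7.25 and 7.53 reads of *nppb* per 100 of *nppa* in mutant libraries 1 to 3 and 8.35, 8.38 and 8.39 in WT libraries 1 to 3. All mutant ratios lie below all WT ratios, but mutant library 1 nearly meets them. The log2 ratio was −3.70 ± 0.101 in mutant and −3.58 ± 0.0039 in WT hearts (SD, n = 3 each), a difference of −0.12 (two-sided exact permutation test, p = 0.1). That is the smallest p that 3 against 3 can give, so this test cannot pass 0.05 with 3 libraries a group. Counting error alone amounts to 0.0464 to 0.0520 in a mutant library and 0.0432 to 0.0512 in a WT library, and to 0.0394 for the difference. The 3 WT ratios are therefore closer to each other than counting error, and the gap between mutant library 1 and the WT libraries is inside it. Transcript lengths were not used, so the ratio compares groups and not the amounts of the peptides.

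**Figure D4:**
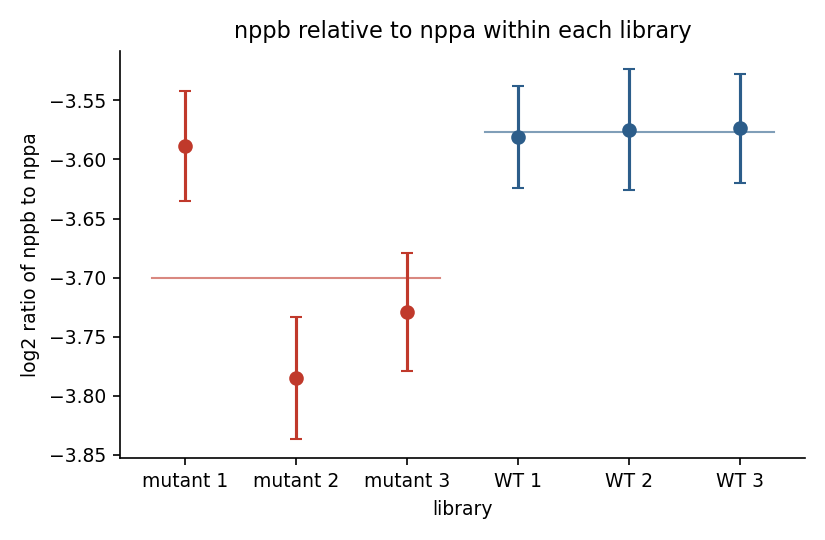
Log2 ratio of *nppb* to *nppa* in each library, mutant in red and WT in blue, with the counting error as bars and the group means as lines. Mutant libraries 2 and 3 lie below the WT libraries by more than their bars, and mutant library 1 lies within its bar of them.

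Around the peptide genes, the one other tested gene within 50 kb was the chloride transporter gene *clcn6* on the opposite strand, at 59, 79 and 75 in mutant and 59, 57 and 55 in WT libraries (log2 change 0.30, SE 0.201, limma adjusted p = 0.857). Among 10186 tested genes with a mean of at least 50, the 3 whose log2 values over the 6 libraries lay closest to those of *nppa* were *hcn2b*, which encodes a hyperpolarization-activated channel, *tmod1*, which encodes the actin-capping protein tropomodulin, and *kank2*. Their root mean square differences from *nppa* were 0.0196, 0.0227 and 0.0238 on the log2 scale. For *hcn2b* the values were 603, 604 and 607 in mutant and 617, 567 and 562 in WT libraries. It was chosen for its closeness to *nppa*, so a shared order of libraries carries no further information. The 3 closest to *nppb* were *pcyt1aa*, an enzyme gene of phosphatidylcholine synthesis, the cyclin gene *ccng1* and *fhl2a*, which encodes a LIM-domain protein of heart muscle, with differences of 0.0181, 0.0188 and 0.0262. With 6 libraries such a likeness is a description.

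The wider pathway was described by 6 lists, of which 53 genes were tested. None was called, against 0.037% of all genes tested (limma, adjusted p under 0.05); 10 had an unadjusted p under 0.05, where 6.6% of all tested genes did, and the lowest adjusted p was 0.411. Of the 53, 33 had a log2 change above 0 and 20 below, and the groups stood clear of each other in 9 higher and 4 lower, against 5.57% and 5.53% of all tested genes. The median log2 change was 0.03, beside −0.0029 over all tested genes. The genes named next without a place among the 2 most abundant of their list were chosen after their values were seen.

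Genes that process or clear the peptides had a median log2 change of 0.14 over 7 tested, 5 above 0. *corin*, whose protease turns the atrial precursor into the hormone, stood at 686, 962 and 773 in mutant and 799, 827 and 814 in WT libraries, with the lowest and the highest value both in mutant hearts. *furina*, a convertase gene, had 1020, 1159 and 1090 in mutant and 967, 1009 and 1028 in WT, and *mmel1*, a neprilysin-like peptidase gene, had 1257, 1509 and 1310 in mutant and 1105, 1105 and 1353 in WT. Both overlap between the groups. The groups stood clear for 2 of the 7, *ostn* and the convertase gene *pcsk6*, against 11.1% of all tested genes. *ostn* encodes osteocrin, which in mammals binds Npr3 and so spares the natriuretic peptides from clearance. Its values were 55, 60 and 53 in mutant and 41, 39 and 20 in WT libraries, a log2 change of 0.80 (SE 0.286, limma adjusted p = 0.595), and WT library 3 is the lowest. *pcsk6* had 73, 72 and 69 in mutant and 56, 59 and 60 in WT (log2 change 0.29, SE 0.188, limma adjusted p = 0.856).

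The genes of other routes to cGMP were at low values. Of 7 tested guanylate cyclase and nitric oxide synthase genes 4 were above 0, with a median log2 change of 0.03. The groups stood clear in 0 of the 7, against 11.1% of all tested genes. The most abundant were *nos1*, at 115, 120 and 79 in mutant and 108, 134 and 70 in WT, and the soluble cyclase subunit gene *gucy1b3*, at 26, 31 and 31 in mutant and 26, 39 and 38 in WT. The alpha subunit gene *gucy1a3* missed the value filter, with 17, 2 and 8 in mutant and 3, 0 and 12 in WT libraries.

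Of 7 tested cGMP kinase and target genes, 4 were above 0, with a median of 0.02. The most abundant were the feature named *pln*, the symbol of the calcium pump inhibitor phospholamban, at 2523, 2606 and 2696 in mutant and 3125, 2619 and 2226 in WT, and the actin regulator gene *vaspb*, at 1034, 987 and 1038 in mutant and 1054, 1103 and 1036 in WT. The annotation gives *pln* the biotype antisense and places it within the span of *cep85l* on the opposite strand, so its reads may be mixed with those of that gene and its value is uncertain. The *pln* feature had the same order of WT libraries as *nppa*, which with 3 libraries is a description only. That order was not particular to *pln*. Every cardiomyocyte marker checked but *ryr2b*, *slc8a1a* and *myl4* had it too. The groups stood clear in 1 of the 7, against 11.1% of all tested genes. This was the cGMP kinase gene *prkg1a*, at 146, 160 and 152 in mutant against 121, 128 and 131 in WT (log2 change 0.27, SE 0.137, limma adjusted p = 0.781). Its copy *prkg1b* was at 180, 60 and 53 in mutant and 68, 85 and 90 in WT, with mutant library 1 far above the rest.

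Phosphodiesterases, which break down cyclic nucleotides, had a median log2 change of −0.05 over 9 tested genes, 4 above 0. The most abundant, *PDE3B* and *pde3a*, encode cGMP-inhibited enzymes. *PDE3B* had 948, 969 and 934 in mutant and 986, 1010 and 951 in WT, and *pde3a* had 661, 785 and 715 in mutant and 603, 616 and 705 in WT. The groups stood clear for 3 genes, none of them called, where 11.1% of all tested genes stood clear. *PDE1C* had 17, 27 and 15 in mutant and 4, 10 and 4 in WT (log2 change 1.62, SE 0.492, limma adjusted p = 0.474). *PDE2A*, a cGMP-stimulated enzyme, had 70, 81 and 76 in mutant and 92, 138 and 82 in WT (log2 change −0.42, SE 0.204, limma adjusted p = 0.761), and *pde10a* had 231, 277 and 258 in mutant and 313, 280 and 290 in WT.

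**Figure D5:**
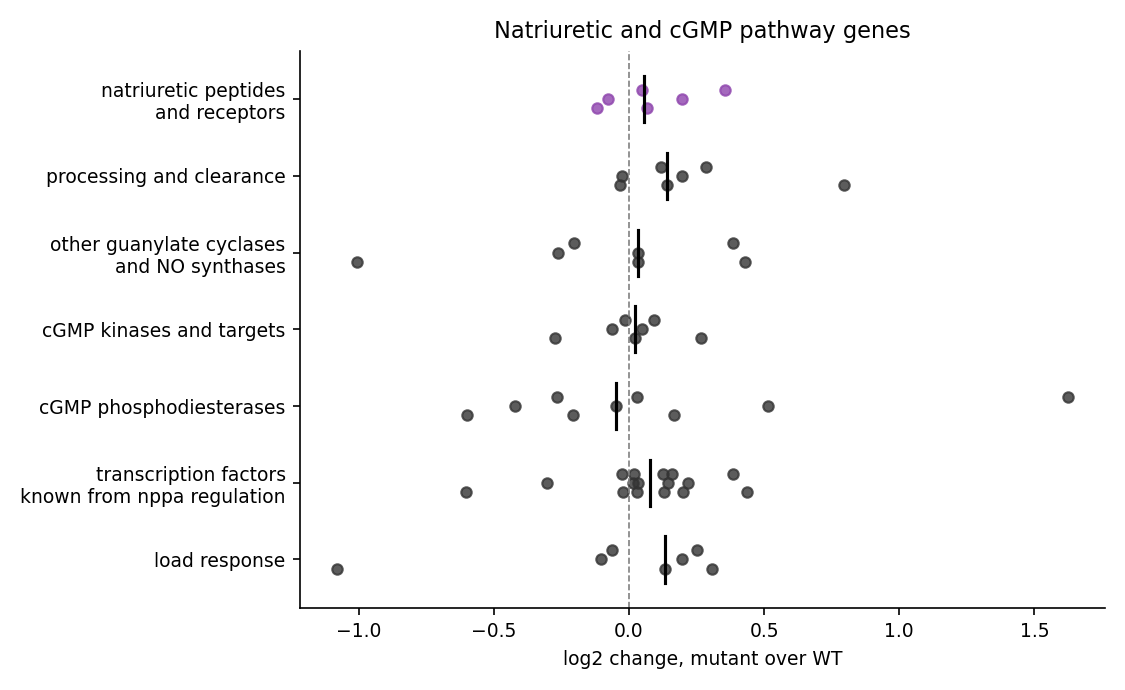
Log2 change, mutant over WT, of each tested gene of the natriuretic system (purple) and of the 6 pathway lists (grey), with a bar at each median. The list medians lie between −0.05 and 0.14, and the points farthest from 0 are *PDE1C* at 1.62, *ankrd1a* at −1.08 and *gucy2c* at −1.01, none of them called. These 3 had low mean values, of 12.8, 31 and 15.2. Another entry of the same name in capitals, *GUCY2C*, stood at 0.39.

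Transcription factors known from the control of *nppa* in vertebrate hearts were all tested, 16 in number, with 12 above 0 and a median log2 change of 0.08. *gata5* had 2329, 2457 and 2349 in mutant and 2311, 2071 and 2012 in WT, and *tbx20* had 2299, 2188 and 2159 in mutant and 2503, 1992 and 2092 in WT. Of these 2, only *gata5* stood clear of WT (log2 change 0.16, SE 0.0838, limma adjusted p = 0.793). Over the 16 factors, the groups stood clear in 4 higher and 2 lower, against 5.57% and 5.53% of all tested genes. The others that stood clear were *tbx2b*, *nkx2.7* and *srfb*, higher, and *hey2* and *tbx5b*, lower. The factors with the lowest unadjusted p were *hey2*, a repressor, at 79, 73 and 99 in mutant and 139, 118 and 123 in WT (log2 change −0.60, SE 0.171, limma adjusted p = 0.411), the Nkx gene *nkx2.7*, at 301, 297 and 291 in mutant and 247, 178 and 237 in WT (log2 change 0.44, SE 0.134, limma adjusted p = 0.486), and *srfb*, a serum response factor gene, at 279, 321 and 297 in mutant and 230, 247 and 210 in WT (log2 change 0.38, SE 0.117, limma adjusted p = 0.486). *tbx2b*, a repressor of *nppa* in the atrioventricular canal, had 774, 789 and 791 in mutant and 712, 589 and 729 in WT (log2 change 0.22, SE 0.0991, limma adjusted p = 0.754). *nkx2.5* and *tbx5a*, known activators of *nppa*, overlapped between the groups, with log2 changes of −0.02 and 0.02. The other Tbx5 gene of the list, *tbx5b*, had 95, 95 and 94 in mutant and 128, 108 and 116 in WT (log2 change −0.30, SE 0.155, limma adjusted p = 0.781).

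Genes that, with *nppa* and *nppb*, are used as readouts of load on heart muscle had a median log2 change of 0.13 over 7 tested, 4 above 0. The skeletal-type actin gene *acta1b* had 8959, 9061 and 10582 in mutant and 7577, 8511 and 7017 in WT libraries, with the groups clear of each other (log2 change 0.31, 95% interval 0.09 to 0.52, limma adjusted p = 0.519). It was the 1 gene of the 7 to stand clear, against 11.1% of all tested genes. Fast skeletal muscle RNA was present in these pools, its 9 markers having a median log2 change of −0.01. Which tissue the *acta1b* reads came from was not tested. *xirp1*, a gene of intercalated disc and Z-disc, had 2562, 2734 and 2571 in mutant and 3217, 2661 and 2611 in WT. *ankrd1a*, a stretch-responsive gene, had 13, 13 and 37 in mutant and 49, 43 and 31 in WT, with mutant library 3 inside the WT range (log2 change −1.08, SE 0.390, limma adjusted p = 0.595). *xirp2a* went the other way, at 1703, 2121 and 1990 in mutant and 1875, 1539 and 1474 in WT (log2 change 0.25, SE 0.108, limma adjusted p = 0.728). *acta1b*, *ankrd1a* and *xirp2a* were the 3 of the 7 with an unadjusted p under 0.05 (limma), against 6.6% of all tested genes. The other Ankrd1 gene of the list, *ankrd1b*, missed the value filter. It had 4, 9 and 15 in mutant and 3, 9 and 2 in WT libraries, not the direction of *ankrd1a*.

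Markers of the cell types that carry the system were set beside these values. None of the 12 cardiomyocyte markers was called, with a median log2 change of −0.04, and 2 stood clear below WT. The 5 atrial markers, which share *myl4* with the cardiomyocyte list, had a median of −0.36, while *myh6*, the atrial myosin gene, was at 0.12. Of the 5, 3 stood clear below WT: *mybphb*, *nr2f2* and *myl4*, the last at a mean value of 40. *mybphb* had 1084, 1229 and 1260 in mutant and 1683, 1922 and 1546 in WT (log2 change −0.52, SE 0.0984, limma adjusted p = 0.0903) and was not called. Of all tested genes, 5.57% stood clear above WT and 5.53% below. The 5 tested ventricular markers had a median of −0.04 with 2 above 0: the myosin genes *vmhc* and *vmhcl* were at −0.11 and −0.04, and *irx3a*, at 0.37, was the 1 that stood clear of WT, above it. Of 7 endothelial markers 4 were above 0, with a median of 0.03 and a range from −0.31 (*klf2a*) to 0.32 (*cdh5*). The groups stood clear in 2 of the 7, *cdh5* and *tie1*, both above WT. All 5 epicardial markers were below 0, and 2 stood clear below WT, among them *tcf21* at −1.11 (SE 0.242, limma adjusted p = 0.224). No atrial, ventricular, endothelial or epicardial marker tested was called, where 0.037% of all tested genes were. The epicardial markers had sums of 520 to 671 in mutant and 681 to 876 in WT libraries. Scaled to the cardiomyocyte markers in place of the authors' scaling, the log2 change was 0.12 for *nppa* and −0.0036 for *nppb* (limma adjusted p = 0.901 and 0.997). The part of these markers in the values of the members was not tested further.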

How the data were processed

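Total RNA was extracted with a Qiagen miRNeasy kit and libraries were made with the Clontech Pico Input kit and sequenced as single reads, per the labels' protocols. STAR 2.4.0a and featureCounts 1.4.5-p1 were used with the GRCz10 assembly, per the submitters' processing notes. No source used here states the counting options or the use of strand. The deposited values are treated as a score: whole numbers that the authors obtained by scaling the counts of each library. Their pattern shows it, since 7 of the whole numbers up to 100 never occur in mutant replicate 2, 5 in mutant replicate 3 and 12 in WT replicate 2. The worth of a read was estimated from these gaps and from pile-ups in the other libraries. The planned unit was the one found, and no count model was run.

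Values were analysed as log2(value + 1), a scale that understates the change of low genes. Tested genes reached 10 in 3 or more libraries, and the fit was made with limma 3.58.1 in R 4.3.3, with its trended variance option, and p-values were adjusted over all of them by Benjamini-Hochberg. The script was tested on simulated data. No 2 libraries of a group were alike within sampling noise: the median squared difference between replicates was 2.62 to 3.30 times that of counting. The series' text calls the replicates biological. Members, lists and tests were chosen with earlier results of these data known. The genes named are the members, the 2 most abundant of each pathway list, the genes closest to *nppa* and *nppb*, the tested neighbours within 50 kb, and others said to be chosen after their values were seen. Alternatives were pseudocounts, value filters, 4 other scalings, library weights, robust variance moderation, a replicate block and each library left out.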

Additional observations from a re-analysis of the deposited data

How the results depend on the processing

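Over the 6 tested members and 17 alternative settings, 102 values in all, 0 were called (limma, lowest adjusted p = 0.712), and 101 kept the direction reported. The exception was *npr1a* without WT replicate 1, at 0.025; over the libraries left out in turn its log2 change ran from −0.32 to 0.025. With libraries left out, *nppa* ran from 0.0123 to 0.0978, *nppb* from −0.12 to −0.0287, *npr1b* from 0.21 to 0.50, *NPR2* from 0.11 to 0.27, *npr3* from 0.0042 to 0.16, and the log2 ratio of *nppb* to *nppa* from −0.18 to −0.0822. No pathway gene was called under any of the 17 settings, a count added after seeing the data. The number of all genes called, 7 in the fit reported (2 higher and 5 lower), was 68 when libraries were scaled to their total without ribosomal RNA (25 higher and 43 lower), 22 with robust variance moderation, and 5 to 43 with a library left out (43 without WT replicate 2 and 11 without WT replicate 1); the cause was not tested. Scaled to the cardiomyocyte markers, 5 genes were higher and 3 lower, and the median log2 change of all genes moved by 0.0725. Same-numbered deviations correlated at 0.0217, −0.0224 and −0.0178, so the values gave no sign of a pairing by replicate number. Whether same-numbered pools were prepared together cannot be told from this. A replicate block gave 15 called genes, 0 of them members, and the ratio of *nppb* to *nppa* a p of 0.25 (exact sign-flip permutation, the smallest it can give). Depth limits *nppc* most.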
